A study of Homo sapiens with 4 samples.

Results

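Alternative exons that lie wholly in 5′ untranslated regions were compared between MDA-MB-231 and MDA-LM2. MDA-MB-231, here the parental line, is a long-established line of human breast cancer cells, and MDA-LM2 (LM2) is a derivative of it that metastasises to the lung at a high rate. Neither line was treated, both were grown in the same serum-containing DMEM-based medium, and the labels list 2 total RNA samples per line. The deposited tables give 1 value per line and name no replicate, so a difference between the lines has no replicate error here and no test of the lines was possible. A skipped exon was taken where it matched an exon of GENCODE release 29 base for base, overlapped no coding sequence in any transcript, and preceded the coding sequence in at least 1 coding transcript. It also needed at least 10 informative reads in each library, that is, reads that fit only the isoform with the exon (inclusion reads) or only the isoform without it (exclusion reads). These conditions left 1883 exons in 1200 genes out of 21631 skipped exons with that many reads, and 1661 further 5′ untranslated exons fell under the read minimum.

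The 5′ untranslated region is the stretch of an mRNA that the small ribosomal subunit scans before it reaches the start codon of the protein. An exon there adds no amino acid to the main protein, but it can bring in upstream ATG triplets, whose short reading frames can capture scanning ribosomes, and it can add structure or binding sites for RNA-binding proteins. Exons of this kind are included or skipped by the spliceosome, and they also differ between transcripts that begin at different promoters, because each promoter supplies its own first exon.

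Some upstream ATGs of called exons in INTS12, PPT2, CDC42SE2, NAP1L4 and PON2 are shown first, because a scanning ribosome meets them before the start codon. They are examples that were not picked by size of difference, and other called exons also hold ATGs. Each line gives 8 bases on either side of an ATG in capitals, 5′ to 3′ on the strand of the gene, taken from the GENCODE 29 transcripts with hg38 coordinates of the triplet. In the 7 windows below, except that of PON2, the ATG has a purine 3 bases before it and a G directly after it, which is called strong context here, and every frame but that of INTS12 at 105703667 ended within the 5′ untranslated region. The windows lean to strong context and are not typical of all ATGs in these exons. Strong context held for 1 of 7 ATGs in the 244-nt INTS12 exon, 1 of 5 in CDC42SE2 and 1 of 3 in PPT2. It held for 2 of 3 in the 162-nt INTS12 exon and for the only ATG of the NAP1L4 exon. Codons of a frame are counted with the ATG and without the stop.
INTS12, 162-nt exon, chr4:105703765-105703767, minus strand, frame of 4 codons: aaaagaaaATGgaggaagt
INTS12, 162-nt exon, chr4:105703667-105703669, minus strand, frame running into the coding sequence: agctgagaATGgtgattct
INTS12, 244-nt exon, chr4:105708015-105708017, minus strand, frame of 9 codons: attatgaaATGgcaacgat
PPT2, 406-nt exon, chr6:32154012-32154014, plus strand, frame of 27 codons: agggcgcaATGgaatattc
CDC42SE2, 169-nt exon, chr5:131316089-131316091, plus strand, frame of 4 codons: tgcataatATGgaatgttc
NAP1L4, 143-nt exon, chr11:2989205-2989207, minus strand, frame of 6 codons: cgaccactATGgtgatagg
PON2, 125-nt exon, chr7:95415258-95415260, minus strand, frame of 4 codons: ggggacagATGaggaggtt
The exons of XPO1 and HNRNPC were 26 nt each and are shown whole, with no ATG in either.
XPO1, chr2:61537562-61537587, minus strand: gaaggagcagttggttcaatctctgg
HNRNPC, chr14:21263311-21263336, minus strand: tgagatttttttgatcttcagctaca

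The 5′ untranslated exons were skipped far more often than skipped exons that overlap a coding sequence, in both lines. Other skipped exons outside coding sequence were not compared separately. The inclusion level is the share of transcripts at the event that hold the exon, from 0 to 1, as estimated in the deposited tables by MISO, a program that assigns reads to isoforms. Its median over the 1883 exons was 0.16 in LM2 (quartiles 0.03 and 0.605) and 0.15 in parental cells (quartiles 0.04 and 0.58). Over the 16796 skipped exons that overlap a coding sequence it was 0.86 in each line, and over all 21631 exons 0.76 and 0.75. Both lines were at or below 0.1 for 762 of the 5′ untranslated exons (40.5%), against 17.9% of the coding exons, and both were above 0.9 for 142 (7.54%), against 37.6%. Over all 21631 exons, 5209 were at or below 0.1 in both lines, of which 3012 were coding exons. The 5209 thus also held many exons of neither kind, so low levels were not particular to 5′ untranslated exons. No p-value is attached to this contrast, since exons of 1 library are not replicates. In bulk RNA, fewer cells that use an exon and less use of it in every cell cannot be told apart.

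**Figure D1:**
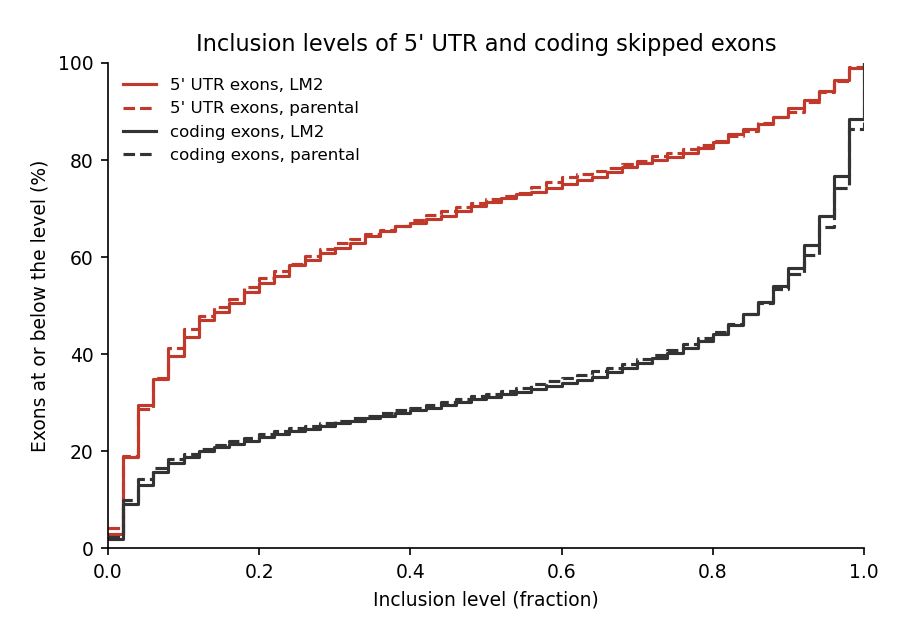
Cumulative share of exons (y axis, percent) at or below each inclusion level (x axis, fraction) for 1883 5′ untranslated exons (red) and 16796 coding exons (black), in LM2 (solid) and parental cells (dashed). The red curves lie above the black ones over the whole range and the 2 lines of each kind nearly coincide; the medians are 0.16 and 0.15 for the 5′ untranslated exons and 0.86 for the coding exons.

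The depth behind these levels was lower than for coding exons. The median number of informative reads per exon was 45 in LM2 and 51 in parental cells, against 79 and 102 for coding exons, while deposited intervals had about the same median width, 0.12 and 0.11 against 0.12 and 0.10. No exclusion read was seen in either library for 208 of the 5′ untranslated exons, and no inclusion read for 115. A level computed only from inclusion reads divided by 2 and exclusion reads, which leaves out reads that fit both isoforms and the exon's length, had a median of 0.275 in LM2 and 0.274 in parental cells.

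Position in the transcript went with the level. Exons whose splice donor is also that of another annotated first exon numbered 458 and had median levels of 0.42 in LM2 and 0.39 in parental cells, and the 1399 exons that shared their donor with no first exon had 0.11 and 0.10. Reads from a transcript that begins in such a first exon can fit the inclusion isoform, so promoter use and exon skipping cannot be told apart for these exons. The 48 exons that are themselves an annotated first exon were at 0.615 and 0.69. Exons of up to 50 nt, of which there were 133, were at 0.06 and 0.07, and the 288 exons over 200 nt were at 0.27 in both lines.

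Most of these exons sat close to the start codon. In the transcript used to place it, the exon was the second one for 1398 of 1883 (74.2%), and the next exon held the start codon for 1435 (76.2%). Median exon length was 118 nt, the same as for all exons tested, with a range from 4 to 1879 nt. The 5′ untranslated region with the exon had a median length of 363 nt, of which the exon made up 34.4% (quartiles 22.4 and 50.2), and 472 exons made up more than 50% of it. A length divisible by 3, which keeps a reading frame in coding sequence, was found for 32.8% of the 5′ untranslated exons and 43.6% of the coding exons. The intron after the exon had a median length of 3522 nt, against 2100 nt over all exons tested, and the intron before it 2520 against 2248 nt. Median GC content was 49.6%, against 48.3% for coding exons.

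An ATG was present in 1378 of the 1883 exons (73.2%) on the strand of the gene, and the same triplet on the other strand, CAT, in 1415 (75.1%). Among coding exons of the same lengths 85.3% held an ATG and 78.9% a CAT, and of the 1871 5′ untranslated exons with such a coding exon 73.0% held an ATG. An ATG in strong context was found in 452 exons (24.0%). For 1261 exons at least 1 ATG opened a frame that ended before the start codon, for 282 a frame that overlapped the coding sequence out of frame, and for 51 an in-frame extension of the protein. In 376 transcripts the exon supplied every upstream ATG there was. These are matches of letters in annotated transcripts, and no translation was measured.

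Between LM2 and parental cells, the levels of these exons were centred on no difference. The median difference, LM2 minus parental, was 0 (quartiles -0.02 and 0.03, range -0.40 to 0.49), and 84.6% of the exons differed by less than 0.1, as did 84.8% of all exons tested. An exon was called where the authors' deposited table of the comparison gives a Bayes factor, the odds of a difference over none, of at least 10 beside a difference of 0.2 or more. By this rule 16 of the 1883 exons (0.85%) were higher in LM2, against a background of 0.846% of all exons tested. A further 4 (0.212%) were lower, against 0.254%. The 5′ untranslated exons were thus called about as often as any skipped exon. The 16 higher exons lay in 16 genes and the 4 lower ones in 3. Of the higher ones, the exons of TEAD1, SMAD2, STAU1, XPO1, NAP1L4, SLC43A3 and TFPI share their donor with another annotated first exon. So do the 244-nt INTS12 exon and the PPT2 exon among the lower ones. For all of these, promoter use and exon skipping cannot be told apart.

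**Figure D2:**
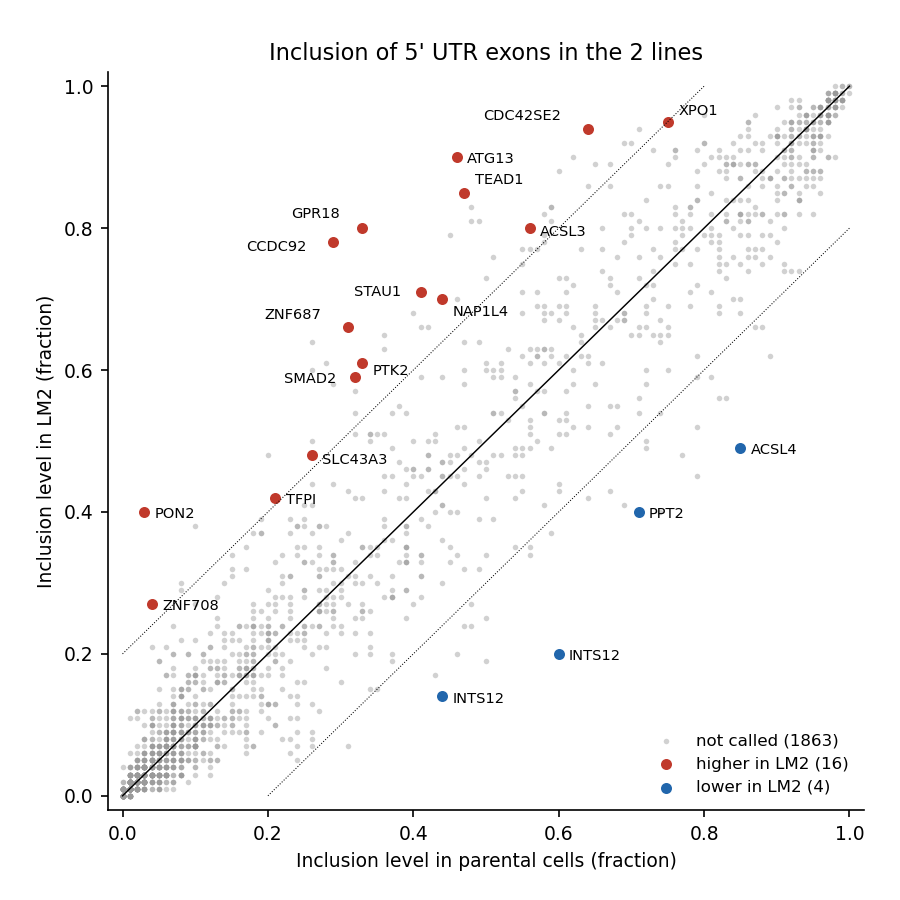
Inclusion level in LM2 (y axis, fraction) against that in parental cells (x axis, fraction), 1 point per exon, with 16 exons called higher in LM2 in red, 4 called lower in blue and the rest grey; the solid line marks equal levels and the dotted lines a difference of 0.2. Points crowd near 0 in both lines and 84.6% of exons differ by less than 0.1, and some grey points lie beyond the dotted lines because their Bayes factor was below 10.

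Regulators of transcription were among the exons called higher. TEAD1 encodes a transcription factor of the Hippo pathway, and its 153-nt exon (chr11:12675409-12675561) was at 0.85 in LM2 (deposited interval 0.80–0.89) and 0.47 in parental cells (0.41–0.54). It was the best covered of the 16, with 459 inclusion and 29 exclusion reads in LM2 beside 216 and 30 in parental cells. The odds of inclusion reads were 2.2 times as high in LM2 (exact 95% interval 1.24–3.9), and the read-based level was 0.888 against 0.783, a smaller difference than the deposited 0.38. The interval is not adjusted for the number of exons, and the TEAD1 exon did not pass Fisher's exact test described below (adjusted p = 0.36). SMAD2, which carries TGF-beta signals to the nucleus, had an 86-nt exon at 0.59 (0.42–0.79) in LM2 and 0.32 (0.24–0.42) in parental cells, on 29 inclusion and 3 exclusion reads against 44 and 9. The 2 intervals of SMAD2 meet at 0.42. Reads at the SMAD2 event were also fewer in LM2, at 0.433 of the parental number after scaling to the library totals. The zinc finger genes ZNF687 and ZNF708 completed this group. The ZNF687 exon, 869 nt long and 89.6% of its 5′ untranslated region, was at 0.66 against 0.31, resting on 56 inclusion and 2 exclusion reads against 52 and 13. Its transcript has no annotated ATG start, so its 16 ATGs were not assigned to frames. The 124-nt exon of ZNF708 was at 0.27 against 0.04, on only 6 inclusion and 7 exclusion reads in LM2 and 2 and 36 in parental cells.

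STAU1, XPO1 and NAP1L4 also had exons called higher in LM2. STAU1 encodes a double-stranded RNA-binding protein that acts in mRNA localisation and decay. Its 75-nt exon was at 0.71 (0.59–0.82) in LM2 and 0.41 (0.33–0.51) in parental cells, on 101 inclusion and 3 exclusion reads against 88 and 6. XPO1, the nuclear export receptor exportin 1, had the 26-nt exon shown above at 0.95 (0.89–0.99) against 0.75 (0.60–0.87). There were 149 inclusion and 2 exclusion reads against 89 and 3, so the read-based levels, 0.974 and 0.937, were nearly equal. NAP1L4 is a histone chaperone, and its 143-nt exon, 50.4% of the 5′ untranslated region, was at 0.70 (0.59–0.81) against 0.44 (0.34–0.55). The read-based difference was 0.25, close to the deposited 0.26, with 113 inclusion and 12 exclusion reads in LM2 beside 73 and 27 in parental cells. A second event of this same exon, with other flanking exons, gave 0.51 against 0.54. The shorter 69-nt version of the exon, which ends at the same donor, was at 0.49 against 0.47.

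Exons of PTK2, CDC42SE2 and ATG13 were called higher as well. PTK2 encodes focal adhesion kinase, and its 89-nt exon on chromosome 8 was at 0.61 (0.50–0.74) in LM2 and 0.33 (0.24–0.43) in parental cells. Its reads, 103 inclusion and 5 exclusion against 48 and 2, gave read-based levels of 0.912 and 0.923, with no difference in that direction. The 169-nt exon of CDC42SE2, which encodes a small effector of CDC42, was at 0.94 against 0.64 with only 1 exclusion read in each library, beside 148 and 116 inclusion reads. It holds 5 ATGs, and the transcript used here has none upstream once the exon is left out. ATG13, a subunit of the complex that starts autophagy, had a 56-nt exon at 0.90 (0.73–0.99) against 0.46 (0.27–0.70), on 28 inclusion reads and 1 exclusion read in LM2 and 14 and 8 in parental cells. The read-based difference in ATG13 was 0.467, as large as the deposited 0.44. A 194-nt exon of ATG13 that ends at the same base but matches no annotated exon was at 0.75 against 0.23, and it rests on the same exclusion reads.

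The other exons called higher lay in PON2, ACSL3, SLC43A3, TFPI, GPR18 and CCDC92. PON2 encodes an intracellular lactonase of the paraoxonase family, and its 125-nt exon was at 0.40 (0.18–0.73) in LM2 and 0.03 (0.01–0.07) in parental cells. LM2 gave 10 inclusion reads and no exclusion read, and parental cells 3 and 27, so the exon was nearly always skipped in the parental library alone. Reads at the PON2 event numbered 0.444 of the parental total after scaling. ACSL3, an acyl-CoA synthetase of lipid droplets and the endoplasmic reticulum, had a 59-nt exon at 0.80 (0.71–0.89) against 0.56 (0.44–0.70), but 176 inclusion and 4 exclusion reads in LM2 stood beside 66 and 0 in parental cells. Event reads of ACSL3 were 2.13 times as many in LM2 (95% interval 2.00–2.28). The purine nucleobase transporter gene SLC43A3 had a 163-nt exon at 0.48 against 0.26, with 114 inclusion and 9 exclusion reads against 81 and 3. TFPI, the inhibitor of tissue factor in coagulation, had a 31-nt exon at 0.42 against 0.21, with 38 and 2 against 29 and 1. In ACSL3, SLC43A3 and TFPI the read-based level was slightly lower in LM2, opposite to the deposited level. GPR18, a G protein-coupled receptor gene that overlaps UBAC2 on the other strand, had a 192-nt exon at 0.80 (0.53–0.99) against 0.33 (0.17–0.53) with no exclusion read in either library. CCDC92, a coiled-coil protein gene, had the largest deposited difference, 0.78 (0.52–0.96) against 0.29 (0.12–0.52), on 9 inclusion reads and 1 exclusion read against 5 and 8.

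The exons called lower in LM2 belonged to INTS12, ACSL4 and PPT2. INTS12 encodes a subunit of Integrator, the complex that cleaves nascent transcripts, and 2 of its exons were called. The 162-nt exon (chr4:105703648-105703809) was at 0.20 (0.10–0.35) in LM2 and 0.60 (0.46–0.75) in parental cells, on 8 inclusion and 14 exclusion reads against 39 and 10. The 244-nt exon (chr4:105707919-105708162) was at 0.14 (0.06–0.26) against 0.44 (0.32–0.59), resting on 7 inclusion reads against 33. Both are measured against the same skipping junction and the same exclusion reads, so they are not independent of each other. Both overlap ARHGEF38 on the other strand, and since no source used here states that the counting used strand, reads of such a partner cannot be told apart here or in GPR18, TFPI and PPT2. Another exon at that junction, 138 nt long, was at 0.19 against 0.37 and was not called. Each of the 2 called INTS12 exons makes up over 75% of its 5′ untranslated region, 75.3% and 81.6%. The transcript used here holds no upstream ATG once the exon is left out. The 162-nt exon brings 3 ATGs, of which 2 are in strong context and 2 open frames that overlap the coding sequence, and the 244-nt exon brings 7.

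ACSL4, which esterifies long-chain polyunsaturated fatty acids to coenzyme A, had a 53-nt exon at 0.49 (0.34–0.63) in LM2 and 0.85 (0.70–0.98) in parental cells. LM2 gave 27 inclusion and 5 exclusion reads, parental cells 54 and 1, and the read-based level was 0.73 against 0.964. The exon is AT-rich, with 30.2% GC, and holds no ATG. PPT2, a lysosomal thioesterase gene, had a 406-nt exon at 0.40 (0.30–0.53) against 0.71 (0.56–0.90), with 75 inclusion and 6 exclusion reads against 132 and 4. This exon is also an annotated first exon and overlaps the read-through gene PPT2-EGFL8 on the same strand and AL662884.3 and AL662884.4 on the other, so its value is uncertain. A 209-nt version of the PPT2 exon with the same donor was at 0.52 against 0.79 and was not called.

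**Figure D3:**
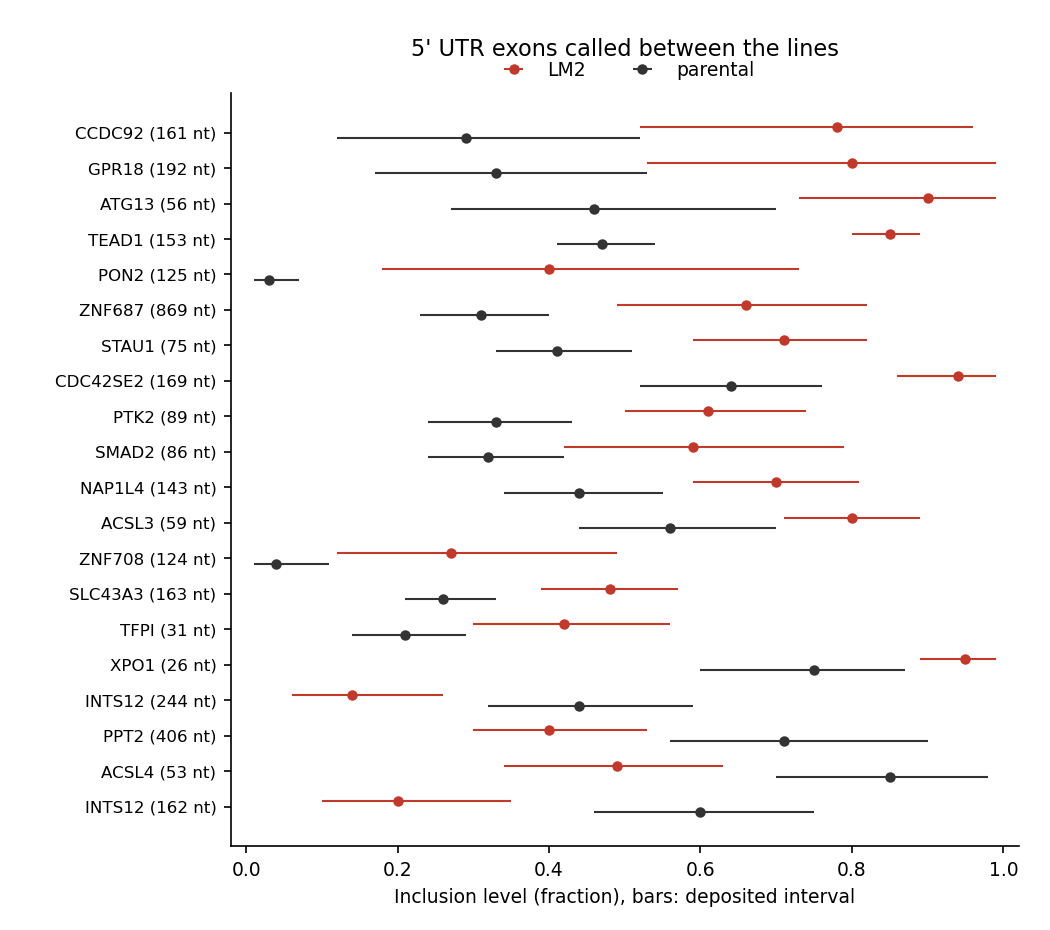
Inclusion level (x axis, fraction) of the 20 called 5′ untranslated exons in LM2 (red) and parental cells (black), ordered by difference, with the deposited interval as a bar and the gene and exon length on the y axis. The intervals of the 2 lines lie apart for 17 exons and meet at a bound for 3, CCDC92, GPR18 and SMAD2; the bars of TEAD1 are short and that of PON2 in LM2 is wide.

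The sequence features of the called exons were mixed. Of the 16 higher exons 8 held an ATG and 4 an ATG in strong context, and 2 of them, in CDC42SE2 and ZNF687, supplied every upstream ATG of the transcript. The ZNF687 transcript has no annotated ATG start, so upstream there means only before the annotated coding sequence. Of the 4 lower exons 3 held an ATG, all 3 had at least 1 in strong context, and in all 3 the exon supplied every upstream ATG of the transcript. For PPT2 the exon is the first of its transcript and makes up 98.1% of the 5′ untranslated region, so little sequence is left without it. The exon was left out of 1 annotated transcript, and transcripts that skip it were not examined. Median GC content was 49.9% in the higher and 40.5% in the lower exons. Of the 16 higher exons 7 shared their donor with another first exon, as did 2 of the 4 lower ones, against 458 of the 1883. With 16 and 4 exons, and the INTS12 pair sharing a gene, these counts are descriptions only.

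Inclusion and exclusion reads alone gave a more restricted picture of the 20 called exons. The read-based difference had the same sign as the deposited one in 11 of the 16 higher exons and reached 0.1 in 8 of them. It was opposite in 4 (ACSL3, PTK2, SLC43A3 and TFPI) and 0 in GPR18. Fewer than 10 exclusion reads over both libraries were seen for 9 of the 16, and the parental read-based level was already above 0.9 in 7, where a rise of 0.1 could not appear. All 4 lower exons kept their sign, and 3 reached 0.1. The deposited level also draws on reads that fit both isoforms, which for CDC42SE2 numbered 295 in LM2 and 450 in parental cells.

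**Figure D4:**
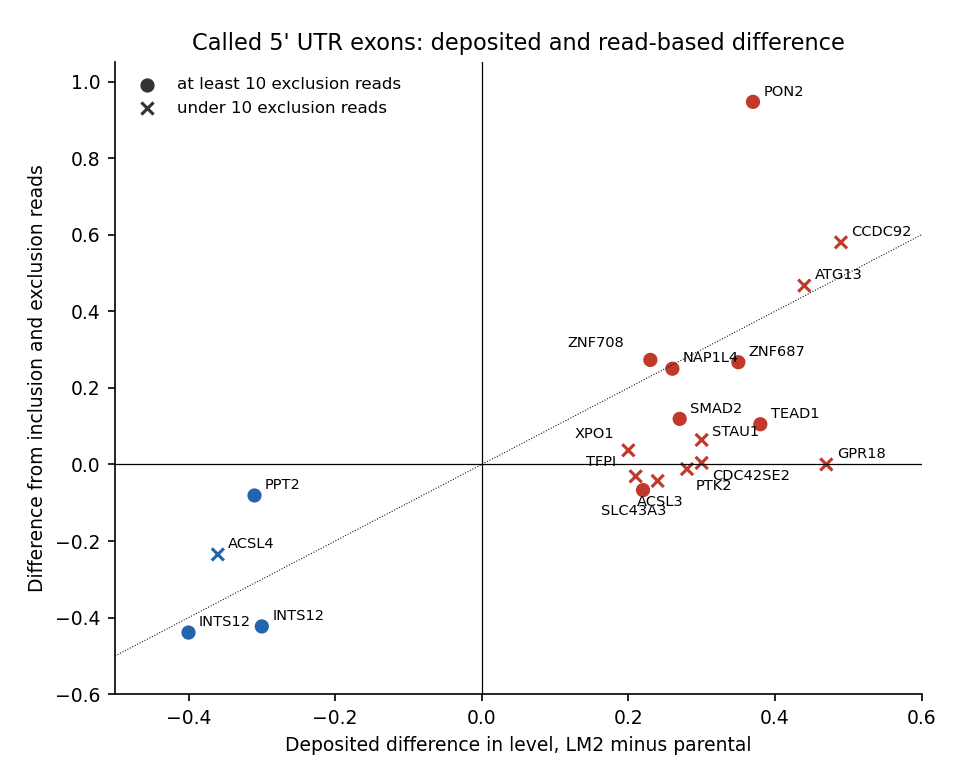
Difference in level from inclusion and exclusion reads (y axis) against the deposited difference (x axis), LM2 minus parental, for the 20 called exons; red marks exons called higher and blue lower, circles at least 10 exclusion reads over both libraries and crosses fewer, and the dotted line marks equal values. PON2, CCDC92, ATG13, ZNF687, ZNF708, NAP1L4 and the INTS12 exons lie away from 0 on both axes, while ACSL3, PTK2, SLC43A3 and TFPI lie just below 0 on the y axis.

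An exon can belong to several events that differ in the flanking exons. Of the 20 called exons 8 had another compared event, and in 7 of these its difference had the same sign. The difference reached 0.2 in 3 of the 8, ATG13 (0.35), STAU1 (0.25) and ACSL4 (-0.25), and the Bayes factor was below 10 in all 3, so none of the 8 was called at its next best covered event. Over all 377 exons with at least 2 events, the difference between the lines varied by a median of 0.06 between events, and by up to 0.40. The parental level of these exons varied by a median of 0.11 between events.

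Elsewhere in the 19 called genes, coding and other exons mostly did not differ. There were 42 further skipped exons outside the 5′ untranslated set in 12 of these genes, 37 of them with a difference below 0.1 and a median of 0. The calls among them were 2 higher and 0 lower, the unannotated ATG13 exon given above and a 63-nt coding exon of PTK2, at 0.94 against 0.67 with 1 exclusion read in each library. Over all exons tested 0.846% were called higher and 0.254% lower. The ATG13 exon shares its exclusion reads with the called exon of that gene, so it is not independent of it.

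Fisher's exact test on inclusion and exclusion reads, two-sided and adjusted by Benjamini-Hochberg over all 21631 exons, sets the 2 pooled libraries, not the lines, against each other. With a read-based difference of at least 0.2 Fisher's exact test called 1 of the 1883 exons, that of PON2 (adjusted p = 0.000162), against 0.134% of all exons tested. Unadjusted p-values lay under 0.05 for 148 of the exons (7.86%), and for 4.91% of all exons tested. An exon with no exclusion read in either library (208 of the 1883, 6619 of the 21631) cannot pass. Nor can an exon with no inclusion read (115 and 1047). Shares of the 1883 and of all exons, here and below, therefore have unlike bases. Exons at the same skipping junction also repeat the same exclusion reads. With no minimum size, 9 exons in 6 genes had a higher read-based level in LM2 (0.478% of the 1883, against 0.333% of all exons tested) and 16 exons in 9 genes a lower one (0.85%, against 0.305%). These 25 exons, named after their values were seen, had deposited differences between -0.16 and 0.37, of which 3 reached 0.1 in size. Only the PON2 exon is also among the 20 called.

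**Figure D5:**
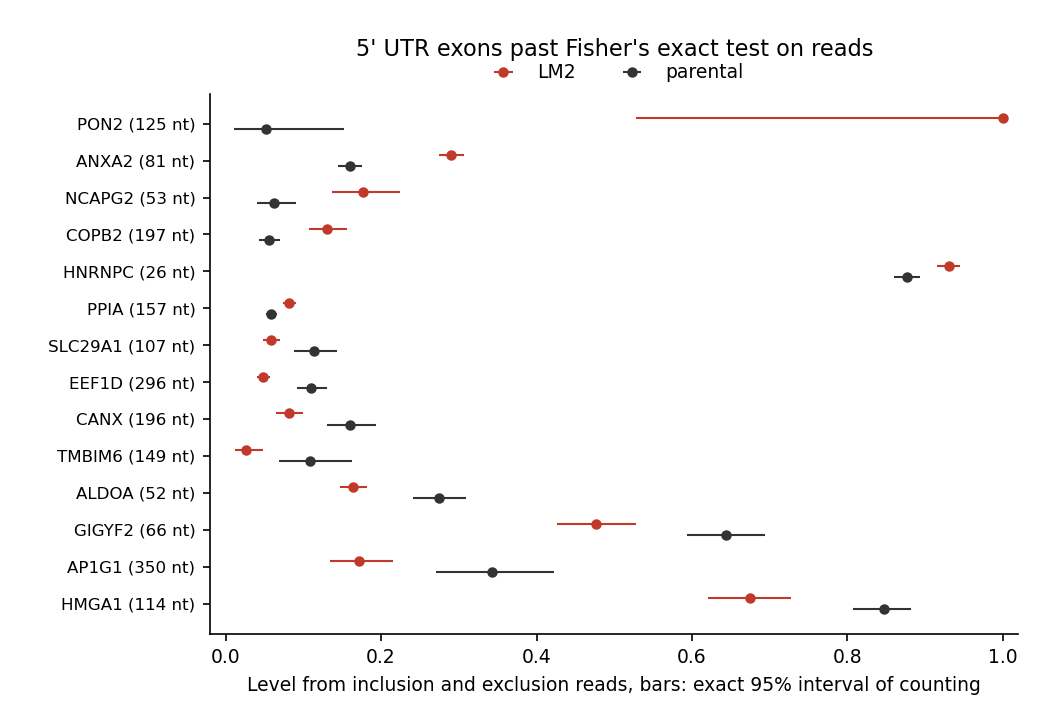
Level from inclusion and exclusion reads (x axis, fraction) in LM2 (red) and parental cells (black) for the best covered exon of each of the 14 genes with an adjusted p below 0.05 in Fisher's exact test; bars are exact 95% intervals that cover counting error only, and the y axis gives gene and exon length. PON2 has the widest bar, and ANXA2 and HNRNPC show narrow bars that do not overlap.

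Among the well covered exons with more inclusion in LM2, ANXA2 had the smallest p. ANXA2 encodes annexin A2, a calcium-dependent phospholipid-binding protein abundant in MDA-MB-231, and its 81-nt exon was at 0.17 (0.16–0.18) in LM2 and 0.09 (0.08–0.10) in parental cells. Reads were 1080 inclusion and 1320 exclusion against 433 and 1136, an odds ratio of 2.15 (1.87–2.47, Fisher's exact test, adjusted p = 9.21e-25). At the next best covered event of the same exon, which has other flanking exons, the level was 0.94 against 0.95, so both level and direction depended on the event. The exon makes up 59.6% of its 5′ untranslated region and holds no ATG. COPB2, a coatomer subunit of transport vesicles, had a 197-nt exon at 0.12 against 0.05, on 109 inclusion and 365 exclusion reads against 69 and 587 (odds ratio 2.54, 1.81–3.58). NCAPG2, a subunit of condensin II, had a 53-nt exon at 0.22 against 0.08, on 66 and 153 reads against 26 and 196. At these events the 3 exons were included in a minority of transcripts in both lines.

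HNRNPC, an abundant nuclear protein that binds uridine tracts in pre-mRNA, had exons on both sides. The 26-nt exon shown above was at 0.95 (0.94–0.96) in LM2 and 0.91 (0.90–0.92) in parental cells. It had 2136 inclusion and 79 exclusion reads against 2644 and 185 (odds ratio 1.89, 1.44–2.51). A 272-nt exon with the same 3′ end shares those exclusion reads and was at 0.27 in both lines. Each level is set against the skipping isoform only, so neither is a share of all HNRNPC transcripts. A separate 163-nt exon was at 0.05 in LM2 and 0.08 in parental cells, with 190 and 237 reads against 324 and 249, an odds ratio of 0.616 (0.475–0.799). PPIA, the peptidyl-prolyl isomerase cyclophilin A, had a 157-nt exon at 0.04 against 0.03.

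Exons with less inclusion in LM2 by this test were led by size by HMGA1, AP1G1 and GIGYF2. GIGYF2 encodes a repressor of mRNA translation, and its 66-nt exon was at 0.52 (0.47–0.57) in LM2 and 0.68 (0.63–0.73) in parental cells, on 269 inclusion and 148 exclusion reads against 380 and 105 (odds ratio 0.503, 0.37–0.682). Few reads fit both isoforms there (13 and 12), and the read-based levels, 0.476 and 0.644, were close to the deposited ones. HMGA1, an architectural chromatin protein, had a 114-nt exon at 0.33 (0.29–0.36) against 0.41 (0.38–0.45), on 341 and 82 reads against 587 and 53. The HMGA1 exon is also an annotated first exon, and it and the GIGYF2 exon share their donor with another first exon. At the next best covered event the HMGA1 exon was at 0.50 against 0.51 and the GIGYF2 exon at 0.90 against 0.93. AP1G1, the gamma subunit of the AP-1 clathrin adaptor, had a 350-nt exon at 0.16 against 0.25, on 74 and 178 against 74 and 71. The next best covered event of the AP1G1 exon had the opposite difference, 0.54 against 0.44. ALDOA, a glycolytic aldolase gene whose exon overlaps another same-strand gene and is uncertain, was at 0.17 against 0.22, and at 0.94 against 0.91 at its next best covered event. Low levels in both lines were seen for CANX, a chaperone of the endoplasmic reticulum (0.03 against 0.04), and TMBIM6, a membrane protein that limits cell death (0.02 against 0.05).

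SLC29A1 and EEF1D supplied 9 of these 16 exons. SLC29A1 encodes the nucleoside transporter ENT1, and its 3 exons end at the same donor and share their exclusion reads, which numbered 868 in LM2 and 257 in the parental library. The 107-nt exon was at 0.07 (0.05–0.08) in LM2 and 0.13 (0.10–0.16) in parental cells, with 107 and 66 inclusion reads. Reads at this event were 3.66 times as many in LM2 (95% interval 3.23–4.15). EEF1D, a subunit of the elongation factor that recharges eEF1A with GTP, had 6 such exons, 5 of them on the same 1389 and 527 exclusion reads. Its 296-nt exon was at 0.03 against 0.05, with 142 and 130 inclusion reads and an odds ratio of 0.415 (0.318–0.542). The deposited levels of the 6 exons lay between 0.02 and 0.04 in LM2 and between 0.04 and 0.06 in parental cells. These low levels depended on the event. At the next best covered event, the 247-nt exon was at 0.76 against 0.87, the 296-nt exon at 0.77 against 0.88 and the 197-nt exon at 0.86 against 0.89. The 179-nt exons stayed low there, at 0.04 in LM2 against 0.04 and 0.06. The 107-nt SLC29A1 exon was at 0.95 against 0.96 at its next best covered event.

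EEF1D had the most 5′ untranslated exons of any gene, 14, at 4 distinct skipping junctions. Their levels ran from 0 to 0.85 in LM2 and from 0 to 0.93 in parental cells, the differences from -0.17 to 0, and none was called by the Bayes factor rule, while the 6 given above passed Fisher's exact test. FAM49B, which encodes a regulator of RAC1 signalling, and WARS, tryptophanyl-tRNA synthetase, had 10 each, and CTSB, the lysosomal protease cathepsin B, had 8, as did HNRNPC. In FAM49B the differences ran from -0.07 to 0.01, in WARS from -0.06 to 0.01 and in CTSB from -0.01 to 0.03. Most of these exons were rare forms at the event used here, with median levels in LM2 of 0.05 in FAM49B, 0.03 in WARS and 0.015 in CTSB. The members of a gene are often variants of 1 exon. Over the whole set, 690 exons shared a skipping junction with another and 449 overlapped another, and there were 1474 distinct junctions.

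Among the best covered exons, several were skipped in nearly all transcripts at their events in both lines. The 201-nt exon of ENO1, the glycolytic enolase, was at 0 with 16 inclusion and 6918 exclusion reads against 11 and 10130. A 243-nt exon of ENO1 was at 0.01 in both lines. LDHA, lactate dehydrogenase A, had a 150-nt exon at 0 with 7 and 6953 reads against 9 and 6011. The 2 exons of SNRPD2, a core spliceosomal protein gene, were at 0.01 and 0 in both lines, and the 33-nt exon of YWHAE, a 14-3-3 protein gene, was at 0.05 against 0.04.

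Some exons were used at intermediate levels in both lines with little difference. GTF2H2, a subunit of the general transcription factor TFIIH, had a 98-nt exon at 0.55 (0.49–0.61) in LM2 and 0.55 (0.48–0.62) in parental cells, on 197 inclusion and 77 exclusion reads against 169 and 67. SEC31A, a coat protein of vesicles leaving the endoplasmic reticulum, had a 74-nt exon at 0.61 against 0.60, and it overlaps THAP9-AS1 on the same strand and is uncertain. The 153-nt exon of MORF4L2, a chromatin protein gene, was at 0.60 against 0.62, and its 122-nt form, which shares the exclusion reads, at 0.67 against 0.66. FAM204A had a 201-nt exon at 0.31 against 0.34. The exon of NUP62, a nuclear pore protein gene that overlaps IL4I1, was at 0.31 in both lines and is uncertain. At the next best covered event the SEC31A exon was at 0.97 against 0.98, so its intermediate level depended on the event. There the NUP62 exon was at 0.67 against 0.73 and the GTF2H2 exon at 0.62 against 0.68. The 153-nt MORF4L2 exon was at 0.64 against 0.65 and its 122-nt form at 0.71 in both lines.

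By gene list, exons called by the Bayes factor rule were few everywhere, and the counts stand against 0.846% higher and 0.254% lower over all exons tested. Genes with known control through the 5′ untranslated region had 5 exons in 4 genes, none called, with differences from -0.01 to 0.09. Among them, the 146-nt exon of AZIN1, a regulator of polyamine synthesis, was at 0.21 in both lines. Translation initiation genes had 13 exons and none called, with EIF3E at 0.03 in both lines and EIF3D at 0.03 against 0.04. RNA processing genes had 44, cytoskeleton and adhesion genes 45 and membrane traffic genes 42, with 0 called in each by the Bayes factor rule, although exons of HNRNPC and COPB2 passed the read test above. Of 36 exons of transcription factor genes 2 were higher (SMAD2 and TEAD1), and of all 334 tested exons of these genes 6 were higher and 1 lower. Chromatin genes had 40 exons with the 2 lower ones of INTS12 (7 higher and 3 lower among all 478 of the list), and an exon of KAT6A, a histone acetyltransferase gene, at 0.40 against 0.45.

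Kinase and phosphatase genes had 65 exons with 1 higher (PTK2), beside 9 higher and 0 lower among all 648 exons of the list. Ubiquitin and autophagy genes had 73 with 1 higher (ATG13), beside 13 and 0 among all 683. Lipid and energy genes had 37 with ACSL3 higher and ACSL4 lower, beside 6 and 1 among all 576. Numbered zinc finger genes had 91 exons in 63 genes, 2 of them higher, ZNF687 and ZNF708, beside 5 higher and 3 lower among all 580 exons of the list. Their median level was the highest of any list, 0.62 in LM2 and 0.56 in parental cells, against 0.16 and 0.15 for all 5′ untranslated exons. The ZNF146 exon was at 0.73 against 0.67 and the 281-nt ZNF639 exon at 0.95 against 0.86, while that of ZNF121 was at 0.02 against 0.01. The median difference was 0 for 9 of the 11 lists and 0.01 for membrane traffic and zinc finger genes, beside 0 over all exons tested.

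Reads at the events, scaled to the library totals by a factor of 1.25, give a rough view of transcript abundance. They include inclusion reads, so they also move with splicing. Of the 1200 genes 28 had at least 2 times as many event reads in LM2 and 47 had at most 1/2 as many. Their exact 95% intervals of counting left out 1. The median log2 ratio was -0.02, against -0.05 over all exons tested. Such counts over all genes tested are not given, so the 28 and 47 have no background to stand against. SAA1, serum amyloid A1, was highest, with 188 event reads in LM2 and 40 in parental cells (ratio 5.88, 4.16–8.49), and its exon was at 0.05 against 0.07. MYH10, non-muscle myosin IIB, had 161 event reads against 726, and its exon was at 0.10 against 0.07. Neither SAA1 nor MYH10 had a called exon, and of the 20 called exons 3 (ACSL3, SMAD2 and PON2) lay at events whose reads differed at least 2-fold.

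The identity of the lines was checked on skipped-exon events, since no gene counts were used, taking the best covered event of each gene. Genes typical of MDA-MB-231 had events for 4 of 8 (CD44, EGFR, AXL and ANXA2), with 63232 event reads in LM2 and 81496 in parental cells. Luminal and epithelial genes had events for 6 of 8 and 199 and 648 reads, mostly from ERBB2 (170 and 567), with ESR1 at 1 read in each line and CDH1 at 11 and 13. Leukocyte genes had 11 and 9 reads over 2 of 6 genes, and fibroblast genes 6 and 51 over 1 of 5, while no compared event was listed for the 4 endothelial genes. These counts bear on events only, and the part of other cells in the results was not tested.

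The read minimum sets the edge of the set. The members with fewest reads were an exon of MAOA, with 10 informative reads in each library and levels of 0.21 and 0.06, and an exon of ITGB1, with 10 and 11 reads and levels of 0.26 and 0.29. Just outside lay exons of CSF2RA, with 9 reads in LM2 and 43 in parental cells (0.76 against 0.64), and MSRB3, with 9 and 32 (0.52 against 0.26).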

How the data were processed

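Total RNA from 2 samples per line was made into ScriptSeq v2 libraries, per the labels' protocols. Alignment used STAR 2.7 and hg38, per the submitters' processing notes, and the file headers name MISO as the source of the exon levels. MISO's version, settings and events and the handling of samples are unstated (not given in the sources used here), and each table is taken as 1 pooled library per line. The deposited inclusion levels and interval bounds are fractions, with no stated coverage of the interval. The deposited tables also give raw read counts per event by isoform class. In the authors' deposited comparison, the difference is a score (LM2 minus parental), and the Bayes factor is a ratio that weighs a difference against none. LM2 had 17366605 and parental cells 21716937 reads that fit at least 1 isoform. Reads without molecular identifiers are not independent molecules, so intervals cover counting error only.

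Exons were matched to GENCODE 29 (hg38), and each was represented by its event with most informative reads. Calls needed a Bayes factor from 10 upward with a difference of 0.2 or more in size. Fisher's exact test (SciPy 1.17.1) was adjusted over 21631 exons and tested on simulated data. Named were all called exons, the 10 best covered, 6 at intermediate levels (0.3 to 0.7), up to 3 per gene list, the 4 genes with most exons, 2 exons on each side of the read minimum and, in addition, the exons past the read test. Of the exons chosen from the lists, not all are described. Some exons that the rule selects are not reported here. The members and lists were chosen with earlier results of these data known. Splice-site sequences were not used here.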

Additional observations from a re-analysis of the deposited data

Results flagged for a closer look

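Some 5′ untranslated exons with at least 10 informative reads were listed for 1 line only and so entered no comparison. There were 2 such exons for LM2 and 3 for parental cells. Both LM2 exons are overlapping forms in CSAG1, a cancer/testis gene on the X chromosome, with 7 inclusion and 30 exclusion reads and a level of 0.05 (0.02 to 0.10). In parental cells, 2 overlapping exons of SERPINA1, the gene of alpha-1 antitrypsin, had 57 inclusion and 0 exclusion reads and levels of 0.93 (0.80 to 1.00) and 0.91 (0.78 to 1.00). An exon of GLIPR1L2 had 14 inclusion and 0 exclusion reads and a level of 0.80 (0.56 to 0.96). Each listed event had at least 20 reads over all classes, so an event below that in the other line would not be listed there.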

How the results depend on the processing

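The median difference stayed at 0 under the alternatives tried. With at least 50 reads in each library, 9 exons were higher and 1 lower, with median levels of 0.11 in LM2 and 0.10 in parental cells. A minimum difference of 0.3 left 8 higher. Levels from reads had medians of 0.275 and 0.274. Fisher's exact test called 9 exons with a read-based difference of at least 0.1, 25 with no minimum and 0 with at least 20 reads, a minimum that removes PON2 with its 10 reads in LM2. Further settings were chosen after seeing the data. Without exons that share a donor with a first exon, 9 were higher and 2 lower, with levels of 0.11 and 0.10. With 1 exon per skipping junction the levels were 0.20 and 0.185. With at least 10 exclusion reads 7 were higher and the levels were 0.07 and 0.07. Among called exons, signs turned for ACSL3 (-0.043), PTK2 (-0.012), SLC43A3 (-0.067) and TFPI (-0.031) with levels from reads, and for NAP1L4 (-0.03) at its next best covered event. Among exons past the read test, the next best covered event turned ALDOA (0.03), ANXA2 (-0.01, 81-nt exon) and AP1G1 (0.10). Differences of at most 0.06 in size also turned for exons of CTSB and MORF4L2 with levels from reads and of SEC31A and WARS at the next best event. The cause was not tested. No paired analysis was possible because the tables give 1 value per line with no replicate columns, and leaving out a replicate was not possible for the same reason.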
